A study of Homo sapiens with 8 samples.

Results

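Prednisolone, a synthetic glucocorticoid, was compared with vehicle in control shRNA cells on 4 of the 8 arrays of the series. These were the arrays titled Control prednisolone and Control vehicle, 2 of each, and the comparison covered all 17881 transcript clusters measured (a transcript cluster is the set of exon probes that the array design assigns to a gene). The cells were RS4;11, an established line of B-cell precursor acute lymphoblastic leukemia that carries an MLL fusion. All 4 of these samples had been transduced with a control shRNA vector, and were exposed for 8 h to prednisolone or to vehicle. The prednisolone concentration, the vector's promoter and whether the transduced cells were a pool or a clone are not stated in the labels. The other 4 arrays, labelled BTG1 shRNA and also split between vehicle and prednisolone for 8 h, entered the model to help estimate the spread and were compared at the end. The study's design text asks which genes changed over 2-fold with prednisolone, and how BTG1 knockdown altered that response. The labels do not say whether the arrays of a group are of separate cultures, and p-values then measure the spread between these samples, which may be technical.

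Glucocorticoids bind the glucocorticoid receptor, a nuclear receptor encoded by NR3C1 that waits in the cytoplasm in a complex with heat shock proteins and immunophilins. With hormone the receptor enters the nucleus, binds DNA as a dimer at palindromic response elements, and raises or lowers transcription together with coregulators. It also lowers many NF-kB and AP-1 target genes without such elements. In immature lymphoid cells this program ends in growth arrest and BCL2-family-controlled apoptosis, which is why glucocorticoids are a mainstay of leukemia treatment. BTG1, a partner of the CCR4-NOT deadenylase and of arginine methylation, has been linked to glucocorticoid sensitivity.

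The control arrays carried the labelled cell type. Among B-lineage markers, vehicle arrays 1 and 2 had log2 levels of 9.89 and 9.99 for CD79A, the signalling chain of the B-cell receptor, and of 10.05 and 10.47 for EBF1, the early B-cell factor. The MLL-fusion leukemia genes MEIS1 and FLT3 had mean vehicle levels of 9.32 and 10.07. A level was called dim when the group mean was at or below 6.14 under vehicle or 5.72 under prednisolone, the levels under which 90% of the measurements of 24 genes restricted to other tissues fell. By that measure 12 of 15 T-cell, 10 of 11 myeloid, 9 of 10 erythroid or platelet and 15 of 17 stromal or epithelial markers were dim in both groups. Of 23 measured B-lineage genes 5 were dim in both groups. CD3D, a defining T-cell gene, was at 3.42, 3.32, 3.31 and 3.24 on the 4 arrays.

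Vehicle array 1 stood apart from the other 7. Its interquartile range was 2.95 log2 units against 3.39 to 3.80 on the others, and the median absolute difference between the vehicle arrays was 0.44, against 0.21 between the prednisolone arrays. Its dim clusters were higher and its bright clusters lower than on vehicle array 2. With clusters ranked by level and cut into 10 equal bins, the median of vehicle 1 minus vehicle 2 was 0.17 in the lowest bin and -0.32 in the highest. The median prednisolone difference over all clusters was -0.16 with both vehicle arrays and -0.02 without vehicle array 1. Results below are read relative to that shift. Where leaving out vehicle array 1 added a call or turned the sign of a list's median, that value stands beside the result, and lost calls are given with the fits that left out an array. That array decided the sign of the median in 7 of the 39 gene lists described below, and the number of calls in 12.

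**Figure D1:**
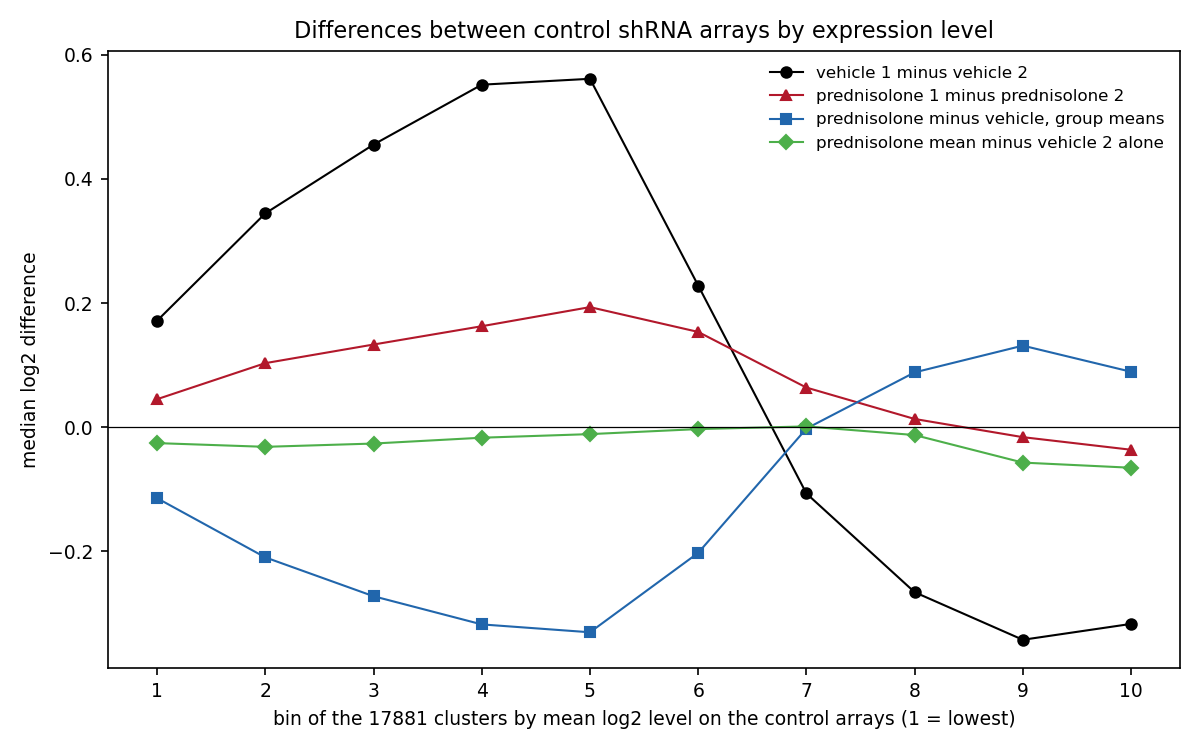
Median log2 difference (y axis) between control shRNA arrays in 10 equal bins of the 17881 clusters by mean level (x axis, bin 1 is the lowest). Vehicle 1 minus vehicle 2 runs from 0.17 in the lowest bin through 0.56 in the fifth to -0.32 in the highest, prednisolone 1 minus prednisolone 2 stays between -0.04 and 0.19, and the prednisolone mean minus vehicle array 2 alone stays between -0.07 and 0.00.

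Because members of a shared response may share the receptor's DNA element, whole promoter sequences were searched for its letters. The search was not limited to the 250 bases upstream of start sites, which are what is printed below. The palindromic consensus was GNACA and TGTNC with 3 bases of any kind between them, and the half-site was AGAACA. Both were sought on either strand, and a half-site can overlap a full site but cannot lie wholly within it. Sequences are RefSeq promoters on GRCh38.p14. Of 148 genes that were higher with prednisolone 121 matched the table, with 228 promoters, and of 90 that were lower 68 matched, with 94 promoters. The palindrome was in 3 of the 228 promoters (1.32%; TXNIP, MAP3K6 and OR7A5) and in 2 of the 94 (2.13%; EEF2K and FKBP11), against 0.323% of the 16426 promoters of all tested genes with 1 symbol and 0.39% of all 35116 promoters in the table. OR7A5, EEF2K and FKBP11 are named only for these small counts, after their values were seen. The half-site was in 11.4% of promoters of the genes that were higher and 7.45% of those that were lower. It was in 11.4% of the promoters of all tested genes, so its share in the genes that were higher equals that background, and in 14.8% of all promoters in the table. A match in such a sequence is a description of the letters and does not show binding. The promoters of TXNIP (chr1:145996580-145996829, minus strand) and MAP3K6 (chr1:27366962-27367211, minus strand) are shown because they hold the palindrome and their genes rose, and that of PIK3IP1 (chr22:31292535-31292784, minus strand) because it stands for the genes that rose with the half-site alone (TGTTCT is AGAACA read on the other strand). Each reads 5′ to 3′ towards the start site, with the match in capitals.
TXNIP: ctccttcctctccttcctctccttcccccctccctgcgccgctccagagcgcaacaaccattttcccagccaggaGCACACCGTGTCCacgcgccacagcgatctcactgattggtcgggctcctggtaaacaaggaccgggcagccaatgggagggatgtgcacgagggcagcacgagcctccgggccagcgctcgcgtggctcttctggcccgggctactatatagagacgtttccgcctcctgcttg
MAP3K6: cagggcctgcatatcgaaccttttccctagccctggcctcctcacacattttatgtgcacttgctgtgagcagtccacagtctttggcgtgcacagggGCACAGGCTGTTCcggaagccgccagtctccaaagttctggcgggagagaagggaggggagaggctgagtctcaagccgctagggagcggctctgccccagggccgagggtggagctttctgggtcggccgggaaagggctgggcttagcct
PIK3IP1: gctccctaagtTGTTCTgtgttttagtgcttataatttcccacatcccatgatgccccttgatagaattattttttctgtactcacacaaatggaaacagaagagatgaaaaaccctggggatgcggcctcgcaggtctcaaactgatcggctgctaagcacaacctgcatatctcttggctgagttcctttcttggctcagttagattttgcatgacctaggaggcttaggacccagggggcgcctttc

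Across all clusters 166 rose and 105 fell with prednisolone at an adjusted p under 0.05 (limma, Benjamini-Hochberg over all clusters), which is 0.928% and 0.587% of those tested, or 1.52% together. The median difference was 1.78 on the log2 scale for those that rose and -1.38 for those that fell. In all 271 the vehicle and prednisolone arrays did not overlap, a property shared by 15.3% of clusters in the upward and 26.4% in the downward direction. Over 2-fold, the study's own criterion and no test, were 691 higher (3.86%) and 249 lower (1.39%). Without vehicle array 1 these were 329 and 255, and without vehicle array 2 they were 1702 and 970. With each array centred on its median the 2-fold counts were 977 higher and 163 lower, so the higher share went from 73.5% to 85.7%. Many of the clusters that changed were dim on one side, 105 of the 166 under vehicle and 46 of the 105 under prednisolone, and for those the log2 difference is not read as a fold.

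How many clusters passed depended on single arrays. Without vehicle array 1 there were 104 higher and 59 lower, without vehicle array 2 there were 481 and 289, without prednisolone array 1 there were 121 and 24, and without prednisolone array 2 there were 36 and 4. Without either BTG1 shRNA vehicle array the counts were 93 and 36, and without either BTG1 shRNA prednisolone array 105 and 39. For this comparison, leaving out array 1 or array 2 of a BTG1 shRNA group gives the same result. The 8 fits that left out an array are therefore not 8 separate checks, and counts of these fits include such repeats. On the 4 control arrays alone 14 rose and 2 fell. In all 8 fits that left out an array, 36 of the higher and 4 of the lower clusters passed, the latter being PRICKLE1, IL1B, PLAUR and LBH. With 2 arrays against 2, an exact permutation test of a single gene cannot give a two-sided p below 0.333, so no such test was used.

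**Figure D2:**
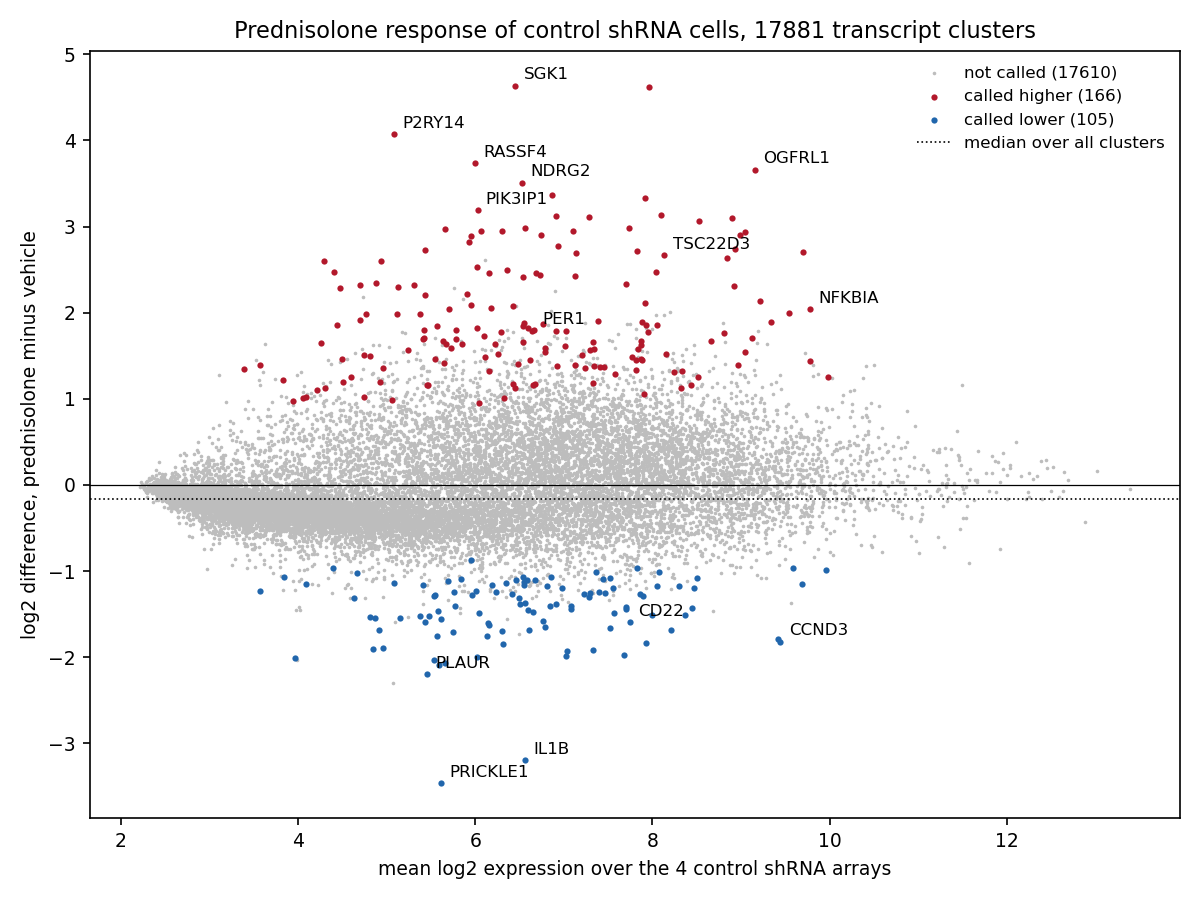
Log2 difference of prednisolone minus vehicle (y axis) against the mean log2 level over the 4 control shRNA arrays (x axis), 1 point per transcript cluster, with the 166 clusters called higher in red and the 105 called lower in blue. The dotted line is the median over all clusters, -0.16; SGK1 (4.64) and PRICKLE1 (-3.46) mark the ends of the named genes.

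Of 27 measured genes that glucocorticoids classically induce in many tissues, 9 rose and 0 fell. Of all 14232 genes with 1 symbol 1.04% rose and 0.632% fell, and these shares are the background for each count of calls in a list below. With all arrays 2526 of the 17881 clusters, both directions together, had an unadjusted p under 0.05 in limma. That is the background for the unadjusted counts given with all arrays. A single call in a list is given for its gene and is not read as a result about the list. The lists were chosen with earlier results of these data known, so their counts are descriptive. The median difference of the 27 was 0.07 (0.20 without vehicle array 1, where the same 9 rose). SGK1, a serum- and glucocorticoid-regulated kinase, was at 4.20 and 4.07 under vehicle and at 8.48 and 9.07 under prednisolone. Its difference of 4.64 (SE 0.23, adjusted p = 5.67e-04) was the largest among clusters with 1 gene symbol, from a dim vehicle level. TSC22D3, which encodes the anti-inflammatory protein GILZ, went from 6.79 and 6.81 to 9.51 and 9.43, 6.37-fold (adjusted p = 0.00118). Its replicates lay closer together than those of most genes that rose. FKBP5, an immunophilin that lowers receptor affinity for hormone, shares its cluster with LOC285847. That cluster read 7.85 and 8.86 under vehicle and 10.83 and 11.28 under prednisolone, 6.50-fold (adjusted p = 0.0134), with the vehicle arrays a full log2 unit apart.

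NFKBIA, which encodes the NF-kB inhibitor IkB-alpha, rose from 8.66 and 8.86 to 10.85 and 10.76, 4.12-fold (adjusted p = 0.00438). TXNIP, a thioredoxin-binding brake on glucose uptake, rose from 8.42 and 8.67 to 10.31 and 10.78, 4.0-fold (adjusted p = 0.00723); its promoter is the first of the 3 printed above. GLUL, glutamine synthetase, rose 3.08-fold from 7.11 and 7.0 to 8.59 and 8.76 (adjusted p = 0.0104). All of these vehicle levels were above the dim limit and no pair of groups overlapped. From dim vehicle levels rose DDIT4, an inhibitor of mTORC1 (difference 2.46), SESN1, a sestrin (2.70), MT1X, a metallothionein (2.32), and PER1, a clock repressor (1.80). Metallothionein genes are near-identical, so the assignment to MT1X is uncertain. KLF9, a textbook receptor target, read 5.85 and 5.33 under vehicle and 6.74 and 6.48 under prednisolone and was not called (adjusted p = 0.117), nor was ZBTB16 (5.22 and 4.46 against 5.70 and 5.45, adjusted p = 0.337). Without prednisolone array 2 the calls of FKBP5 (adjusted p = 0.130), GLUL (0.121), TXNIP (0.0725), DDIT4 (0.0694), SESN1 (0.0694) and PER1 (0.0535) were lost, whereas SGK1, TSC22D3, NFKBIA and MT1X passed in all 8 left-out fits.

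**Figure D3:**
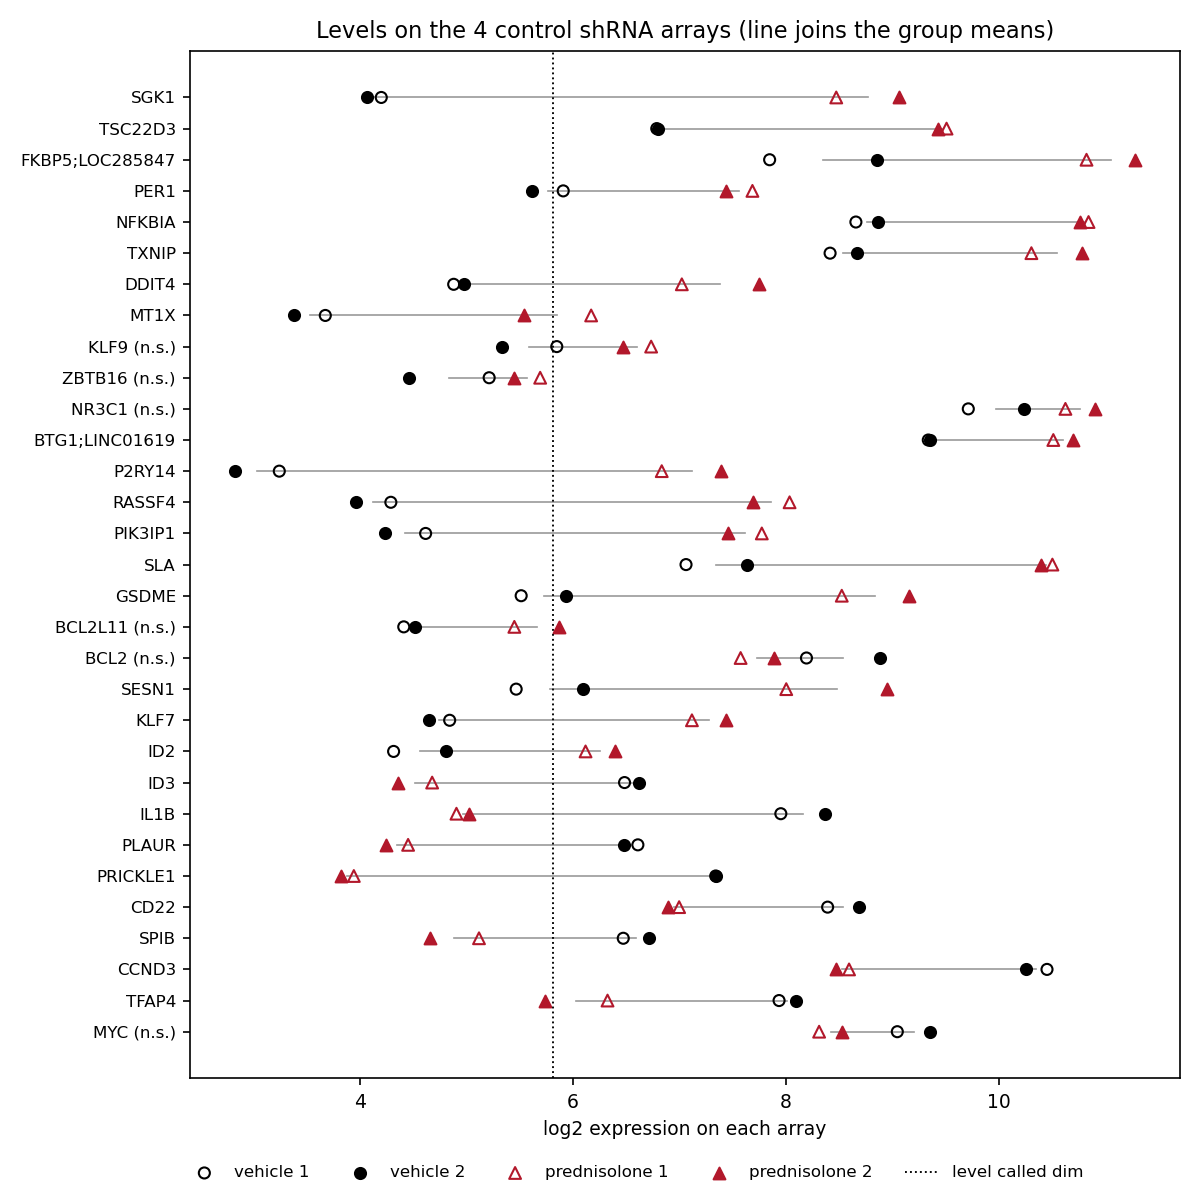
Log2 expression (x axis) of 31 genes on each of the 4 control shRNA arrays: circles are vehicle, triangles prednisolone, open symbols array 1 and filled symbols array 2. The grey line joins the group means, the dotted line at 5.82 is the dim limit over all 4 arrays, and n.s. marks genes that did not pass; SGK1 moves from 4.20 and 4.07 to 8.48 and 9.07, IL1B from 7.96 and 8.37 to 4.91 and 5.03.

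The receptor's own machinery gave no call: 0 of 15 receptor, chaperone and steroid-metabolism genes passed in limma (2 higher and 6 lower at an unadjusted p under 0.05), with a median difference of -0.42 (-0.31 without vehicle array 1, again with 0 calls). NR3C1 itself read 9.72 and 10.24 under vehicle and 10.63 and 10.90 under prednisolone, a difference of 0.79 (SE 0.28, adjusted p = 0.269). FKBP4, the immunophilin that links the receptor to dynein, had a difference of -1.21 (adjusted p = 0.0780), and BAG1, a co-chaperone, of -0.79 (adjusted p = 0.121). Among 14 coregulators 0 passed (2 higher and 2 lower unadjusted). Their median of 0.17 turned to -0.14 without vehicle array 1, so it gives no direction. The smallest p-values included that of SMARCA2, a chromatin-remodelling ATPase, at 0.95 (adjusted p = 0.137).

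BTG1, the gene targeted on the other arrays, lies in a cluster shared with LINC01619. In control cells this cluster went from 9.34 and 9.36 to 10.51 and 10.70, 2.39-fold (SE 0.20 on a log2 difference of 1.26, adjusted p = 0.0288). The call was lost in 7 of the 8 left-out fits, with an adjusted p from 0.0548 to 0.300 in those 7, and among them without vehicle array 1 (0.0960). Of 14 other BTG/TOB and deadenylase genes 0 passed (3 higher and 0 lower unadjusted; median 0.25, or 0.02 without vehicle array 1). CNOT4, a ubiquitin ligase of the CCR4-NOT complex, was at 0.96 (adjusted p = 0.350).

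Genes reported to respond to glucocorticoid in lymphoid leukemia cells had the highest median of the 39 lists, 0.94 (0.75 without vehicle array 1), and 8 of 25 measured rose while 0 fell; the same 8 rose without vehicle array 1. Over all genes with 1 symbol 1.04% rose. As the 39 lists were chosen with earlier results of these data known, this rank and count are descriptive and no independent check. P2RY14, a receptor for UDP-sugars, was at 3.25 and 2.83 under vehicle and 6.84 and 7.40 under prednisolone (difference 4.08, SE 0.25, adjusted p = 0.00118). RASSF4, a RAS-association domain protein, was at 4.29 and 3.97 against 8.04 and 7.70 (difference 3.74, adjusted p = 9.35e-04). Both started from dim levels, and in both every prednisolone value lay more than 3 log2 units above every vehicle value. SLA, the Src-like adaptor that dampens antigen receptor signalling, started well above the dim limit and went from 7.07 and 7.64 to 10.51 and 10.39, 8.57-fold (adjusted p = 0.00501).

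GSDME, a gasdermin that caspase-3 can turn into a membrane pore, rose from a dim 5.52 and 5.94 to 8.53 and 9.16 (difference 3.12, adjusted p = 0.00382). ITGA9, an integrin alpha chain, rose from 5.35 and 4.88 to 7.57 and 7.66 (2.50, adjusted p = 0.00438), and ISG20, an exonuclease, from 5.88 and 5.48 to 7.46 and 7.55 (1.82, adjusted p = 0.00662). SNX9, a sorting nexin, was dim in both groups (difference 1.26, adjusted p = 0.0344). SOCS1, a brake on JAK kinases, had a difference of 1.78 without passing (adjusted p = 0.137). ISG20 lost its call without prednisolone array 2 (adjusted p = 0.0778), and SNX9 in 6 left-out fits (adjusted p 0.0770 to 0.300); P2RY14, RASSF4, PIK3IP1, SLA, GSDME and ITGA9 passed in all 8.

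The BCL2 family, which decides between survival and mitochondrial apoptosis, gave no call in either direction. Of 11 pro-apoptotic members 0 passed (2 higher and 1 lower unadjusted), and their median of -0.24 turned to 0.06 without vehicle array 1 (1 higher and 1 lower unadjusted), so it gives no direction. Of 4 anti-apoptotic members 0 passed (0 higher and 2 lower unadjusted; median -0.42, or -0.39 without that array). BCL2L11, which encodes BIM, the BH3-only protein most often tied to glucocorticoid killing, was at 4.42 and 4.52 under vehicle and 5.45 and 5.88 under prednisolone. Its groups did not overlap, the difference was 1.20 (SE 0.22), and the adjusted p was 0.0539, from levels that were dim in both groups. BMF, another BH3-only gene, was at 5.15 and 4.83 against 5.46 and 5.26 (adjusted p = 0.472). PMAIP1, which encodes NOXA, was at 7.64 and 8.59 against 9.42 and 9.62 (adjusted p = 0.176). With the replicate number added to the limma fit, an alternative described in the closing section, BCL2L11 (adjusted p = 0.027) and PMAIP1 (0.0222) passed as higher. The absence of calls in this family thus depends on the model.

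BCL2 was at 8.20 and 8.89 under vehicle and 7.58 and 7.89 under prednisolone, a difference of -0.81 (SE 0.29, adjusted p = 0.281), or -1.15 without vehicle array 1. MCL1, whose cluster also carries ADAMTSL4 and ADAMTSL4-AS1, was at 8.02 and 8.46 against 8.19 and 8.81 (adjusted p = 0.589). With SEs of this size, differences near 1 log2 unit could be missed in these genes. Of 16 caspases, inhibitors and gasdermins, GSDME alone passed, also without vehicle array 1; CFLAR, which encodes the caspase-8 inhibitor FLIP, was at 1.08 (adjusted p = 0.0630) and BIRC2, an inhibitor of apoptosis protein, at 1.50 (adjusted p = 0.142).

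Brakes on PI3K-mTOR signalling and FOXO targets were among the lists with the most rises: 6 of 22 measured rose and 0 fell, with a median of 0.46 (5 of 22 and 0.52 without vehicle array 1, but 1 of 22 without prednisolone array 2). Over all genes with 1 symbol 1.04% rose and 0.632% fell. PIK3IP1, a membrane protein that inhibits the PI3K catalytic subunit, was at 4.62 and 4.24 under vehicle and 7.78 and 7.46 under prednisolone (difference 3.19, SE 0.21, adjusted p = 0.00121). DDIT4, TXNIP and SESN1, given above, also belong here. All 3 sestrins, stress-induced inhibitors of mTORC1, rose: besides SESN1, SESN2 was at 6.25 and 5.89 against 7.25 and 7.23 (1.17, adjusted p = 0.0288), and SESN3, dim in both groups, at 4.09 and 4.48 against 5.78 and 5.50 (1.36, adjusted p = 0.0437). SESN2 lost its call in 6 left-out fits (adjusted p 0.0726 to 0.252) and SESN3 in 7 (0.0653 to 0.213). BCL6, a FOXO-linked repressor, was at -0.97 and did not pass (adjusted p = 0.111).

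Of 17 MAPK brakes and MAP3K genes 3 rose and 0 fell (median -0.24; 2 rose without vehicle array 1 and 1 without prednisolone array 2). The share that rose over all genes with 1 symbol was 1.04%. SPRY1, a Sprouty inhibitor of receptor tyrosine kinase signalling, was at 4.53 and 3.82 under vehicle and 6.94 and 7.35 under prednisolone (2.97, adjusted p = 0.00506). MAP3K5, the stress kinase ASK1, was at 5.16 and 5.53 against 7.97 and 8.97 (3.12, adjusted p = 0.00656), and DUSP10, a phosphatase for p38 and JNK, was dim in both groups (1.20, adjusted p = 0.0475). DUSP2, a phosphatase of activated lymphocytes, was at -1.02 without passing (adjusted p = 0.190). The call of SPRY1 was lost without prednisolone array 2 (adjusted p = 0.0511) and that of DUSP10 in 7 left-out fits (0.0521 to 0.355).

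Among 16 Krüppel-like factors 1 rose and 1 fell (median -0.15, or 0.06 without vehicle array 1). KLF7 went from a dim 4.85 and 4.65 to 7.12 and 7.44 (2.53, adjusted p = 0.00269). KLF16 went from 8.65 and 8.06 to 6.96 and 6.43 (-1.66, adjusted p = 0.0345), a call lost in 7 left-out fits (0.0607 to 0.301), including that without vehicle array 1 (0.116). Of 15 clock genes PER1 and NFIL3 rose and 0 fell. NFIL3, a bZIP repressor that competes with PAR-domain activators, was at 5.11 and 5.49 against 7.67 and 8.72 (2.90, adjusted p = 0.0104), and DBP, one of those activators, was at -0.84 without passing (adjusted p = 0.142).

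Of 22 inflammatory genes 0 rose and 2 fell, IL1B and PLAUR, and 18 of the 22 were dim in both groups, so falls in them could hardly be measured. IL1B, the cytokine interleukin-1 beta, was at 7.96 and 8.37 under vehicle and at a dim 4.91 and 5.03 under prednisolone. The difference was -3.19 (SE 0.22, adjusted p = 0.00139), and -3.40 without vehicle array 1 (adjusted p = 0.00342). PLAUR, the urokinase receptor, went from 6.61 and 6.48 to 4.46 and 4.25 (-2.19, adjusted p = 0.00293). Both passed in all 8 left-out fits. The list's median was -0.22, and -0.02 without vehicle array 1.

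Of 15 NF-kB genes NFKBIA alone passed, and the subunit gene RELB was at -0.91 (adjusted p = 0.246). Of 16 AP-1 and immediate early genes 0 rose and 1 fell: IER2 went from 7.02 and 6.56 to 5.44 and 5.16 (-1.49, adjusted p = 0.0433), a call lost in 7 left-out fits (0.0541 to 0.367), including that without vehicle array 1 (0.152). The list's median of -0.26 turned to 0.17 without that array. JUNB was at -0.52 (adjusted p = 0.379). Of 21 interferon-response genes 1 rose, ISG20, and 0 fell, with 14 dim in both groups. Of 23 cytokine receptor and JAK-STAT genes IL6ST alone rose (median -0.05, or 0.07 without vehicle array 1). IL6ST, the shared signal transducer gp130, was at 4.71 and 5.66 against 8.22 and 8.88 (3.36, adjusted p = 0.0113), and its call was lost without prednisolone array 2 (0.107). IFNGR1, the interferon-gamma receptor, had a difference of 2.02 but replicates about a log2 unit apart (adjusted p = 0.0742).

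B-lineage genes split: of 23 measured 0 rose and 4 fell, with a median of -0.24, and the same count of 4 fell without vehicle array 1 (median -0.44) but 0 without prednisolone array 2. The share that fell over all genes with 1 symbol was 0.632%. CD22, an inhibitory receptor of B cells, went from 8.40 and 8.69 to 7.0 and 6.90, 3.02-fold lower (adjusted p = 0.0142). SPIB, an ETS factor of B cells, went from 6.48 and 6.72 to 5.12 and 4.66 (-1.71, adjusted p = 0.0181), and BLNK, the linker of the B-cell receptor, from 5.95 and 6.55 to 4.73 and 4.71 (-1.53, adjusted p = 0.0446), both ending dim. CD180, a Toll-like receptor relative of B cells, was dim in both groups (-2.01, adjusted p = 0.0281). The identity factors PAX5 and EBF1 were at -0.49 and 0.05 and did not pass (adjusted p = 0.410 and 0.872). DNTT, the template-independent polymerase of V(D)J joining, was at 7.62 and 8.27 against 6.49 and 6.83 (adjusted p = 0.0904). Leaving out an array ended the call of CD22 in 2 fits (0.0647 and 0.151), SPIB in 3 (0.0507 to 0.175), CD180 in 6 (0.0642 to 0.211) and BLNK in 7 (0.0520 to 0.315).

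Of 23 antigen receptor signalling genes 1 rose, SLA, and 3 fell (median -0.26): BLNK, LCK and PTPN6. LCK, a Src-family kinase counted also among T-cell markers, went from 7.71 and 7.45 to 6.36 and 6.40 (-1.20, adjusted p = 0.0217). PTPN6, the phosphatase SHP-1, went from 10.14 and 9.99 to 9.16 and 9.04 (-0.96, adjusted p = 0.0491). Each of these 2 calls was lost in 7 left-out fits (0.0595 to 0.206 for LCK, 0.0992 to 0.423 for PTPN6), also without vehicle array 1. VAV3, an exchange factor, was at 1.86 (adjusted p = 0.0777) and RASGRP1, a RAS activator, at -1.53 (adjusted p = 0.0730); the latter passed without vehicle array 1 (-2.02, adjusted p = 0.0214).

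Inhibitors of the E proteins that drive B-cell identity moved in opposite directions. ID3 went from 6.49 and 6.62 to a dim 4.68 and 4.36 (-2.04, SE 0.20, adjusted p = 0.00614), and ID2 from a dim 4.32 and 4.82 to 6.12 and 6.40 (1.69, SE 0.24, adjusted p = 0.0204). They were the 2 that passed among 15 ID, E-protein and Notch genes. ID3 lost its call without prednisolone array 2 (0.0655) and ID2 in 5 left-out fits (0.0549 to 0.207), that without vehicle array 1 (0.0663) among them. NOTCH1 was at -0.97 (adjusted p = 0.0889). Of 16 MLL-fusion leukemia genes 1 rose and 1 fell (median 0.13; 0 and 0, with a median of -0.09, without vehicle array 1). RUNX2, a Runt-domain factor, went from 7.41 and 7.35 to 8.30 and 8.57 (1.06, adjusted p = 0.0381), and CSPG4, the surface proteoglycan NG2 used to mark MLL-rearranged leukemia, from 7.84 and 8.16 to 6.23 and 5.92 (-1.93, adjusted p = 0.0347). RUNX2 lost its call in 7 left-out fits (0.0898 to 0.386) and CSPG4 on leaving out any control array (0.0531 to 0.304).

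Among 21 adhesion and chemokine receptor genes 2 rose, ITGA9 and P2RY14, and 1 fell (median -0.29; the same counts and -0.11 without vehicle array 1). ICAM2, a ligand of the integrin LFA-1, went from 9.01 and 9.32 to 7.81 and 7.67 (-1.42, adjusted p = 0.0173), and lost its call without prednisolone array 1 (0.0706) or 2 (0.190). ITGAL, the alpha chain of LFA-1, was dim in both groups (-0.98, adjusted p = 0.0516). Of 10 MHC class II genes 0 passed (1 higher and 2 lower unadjusted; median -0.01), and 1 fell without vehicle array 1 (median -0.15). That gene was HLA-DMB, a chain of the peptide-loading chaperone HLA-DM, at a dim 4.75 and 5.72 under vehicle and 4.26 and 4.20 under prednisolone (-1.0, adjusted p = 0.197; -1.49, adjusted p = 0.0269 without vehicle array 1). The transactivator CIITA was at 8.07 and 8.28 against 7.48 and 7.20 (adjusted p = 0.184).

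The cell cycle lists held 1 call. CCND3, the D-type cyclin of B-cell precursors, went from 10.46 and 10.25 to 8.60 and 8.47, 3.53-fold lower (SE 0.19 on a log2 difference of -1.82, adjusted p = 0.00661), and lost its call without prednisolone array 2 (0.0778). It was the 1 call among 21 G1/S genes (median -0.16), with E2F1 at -0.82 (adjusted p = 0.0811) and the inhibitor CDKN1B at 1.09 (adjusted p = 0.319). Of 23 DNA replication genes 0 passed, with 0 higher and 0 lower at an unadjusted p under 0.05 (median 0.03, or -0.12 without vehicle array 1). Of 20 G2/M genes 0 passed (3 higher and 0 lower unadjusted), and their median of 0.48 was 0.02 without vehicle array 1. These genes are mostly bright, the range in which vehicle array 1 read low. Whether that accounts for the change of their median was not tested.

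MYC and ribosome biogenesis had the lowest median of the 39 lists, -0.52 (-0.51 without vehicle array 1), with 0 of 18 higher and 3 lower. Over all genes with 1 symbol 0.632% fell. MYC was at 9.05 and 9.36 under vehicle and 8.32 and 8.53 under prednisolone, without overlap but also without passing (-0.78, SE 0.19, adjusted p = 0.121). TFAP4, a MYC-induced repressor, went from 7.94 and 8.10 to 6.33 and 5.74 (-1.98, adjusted p = 0.00887). RRP9 and RRP12, factors of rRNA processing, went from 8.10 and 8.03 to 7.02 and 6.93 (-1.08, adjusted p = 0.0369) and from 7.14 and 7.14 to 6.18 and 5.88 (-1.11, adjusted p = 0.0447). TFAP4 lost its call without prednisolone array 2 (0.0694), RRP9 in 7 left-out fits (0.0645 to 0.343) and RRP12 in all 8 (0.0504 to 0.409), so that TFAP4 was the 1 member called without vehicle array 1.

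Metabolic lists were mostly without calls. Of 24 glycolysis genes 0 passed (1 higher and 4 lower unadjusted; median -0.16, or -0.15 without vehicle array 1), with LDHA at 12.10 and 11.96 against 11.17 and 11.09 (-0.90, adjusted p = 0.0630) and the glucose transporter SLC2A1 at -0.97 (adjusted p = 0.0592). Of 15 cholesterol and fatty acid genes 0 passed (0 higher and 4 lower unadjusted; median -0.32, or -0.38 without vehicle array 1), with fatty acid synthase, FASN, at -1.02 (adjusted p = 0.0804). Of 22 serine, amino acid and ATF4 pathway genes 3 rose and 1 fell (median 0.44; 2 and 1 without vehicle array 1, 0 and 0 without prednisolone array 2). SLC7A11, the cystine-glutamate exchanger, went from 5.88 and 6.61 to 8.70 and 9.76 (2.99, adjusted p = 0.0126). DDIT3, the stress factor CHOP, went from 5.24 and 5.57 to 7.05 and 7.30 (1.77, adjusted p = 0.00678), and the third was SESN2.

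GLDC, the glycine decarboxylase, fell from 6.80 and 6.59 to a dim 4.68 and 4.56 (-2.07, adjusted p = 0.0105). ATF4 itself was at 7.02 and 7.0 against 6.54 and 6.38 (adjusted p = 0.285). SLC7A11 lost its call without vehicle array 1 (0.0512) or prednisolone array 2 (0.0719), DDIT3 without prednisolone array 2 (0.0828), and GLDC without prednisolone array 1 (0.0519) or 2 (0.111).

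Stress and turnover lists gave few calls. Of 18 heat shock and unfolded protein response genes 0 passed (0 higher and 4 lower unadjusted; median -0.37, or -0.24 without vehicle array 1), and HSPA5, the ER chaperone BiP, was at -1.21 (adjusted p = 0.0557). Of 17 p53 genes SESN1 and TP53INP1 rose, the latter dim in both groups (1.49, adjusted p = 0.0159) and not called without prednisolone array 1 (0.0804) or 2 (0.148). Of 18 autophagy and lysosome genes ATG12, a ubiquitin-like autophagy protein (1.59, adjusted p = 0.0331), and CTSB, the protease cathepsin B (6.87 and 7.01 against 8.26 and 8.19, adjusted p = 0.0204), rose, both lost in 7 left-out fits (0.0507 to 0.301) and so 0 of 18 without vehicle array 1. Of 6 metallothionein and zinc genes MT1X alone rose.

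The marker lists of other cells gave 2 calls, both lower: LCK, given above, and PDGFRB, a growth factor receptor of stromal cells, which went from 6.70 and 6.57 to a dim 4.74 and 4.34 (-2.09, adjusted p = 0.00614). PDGFRB lost its call without prednisolone array 2 (0.0600). The medians were -0.25 for T-cell, -0.34 for myeloid, -0.36 for erythroid and platelet and -0.34 for stromal and epithelial markers. Without vehicle array 1 each was -0.06 or nearer to 0. The 24 genes of other tissues behaved alike, with a median of -0.30 and of -0.04 without that array.

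**Figure D4:**
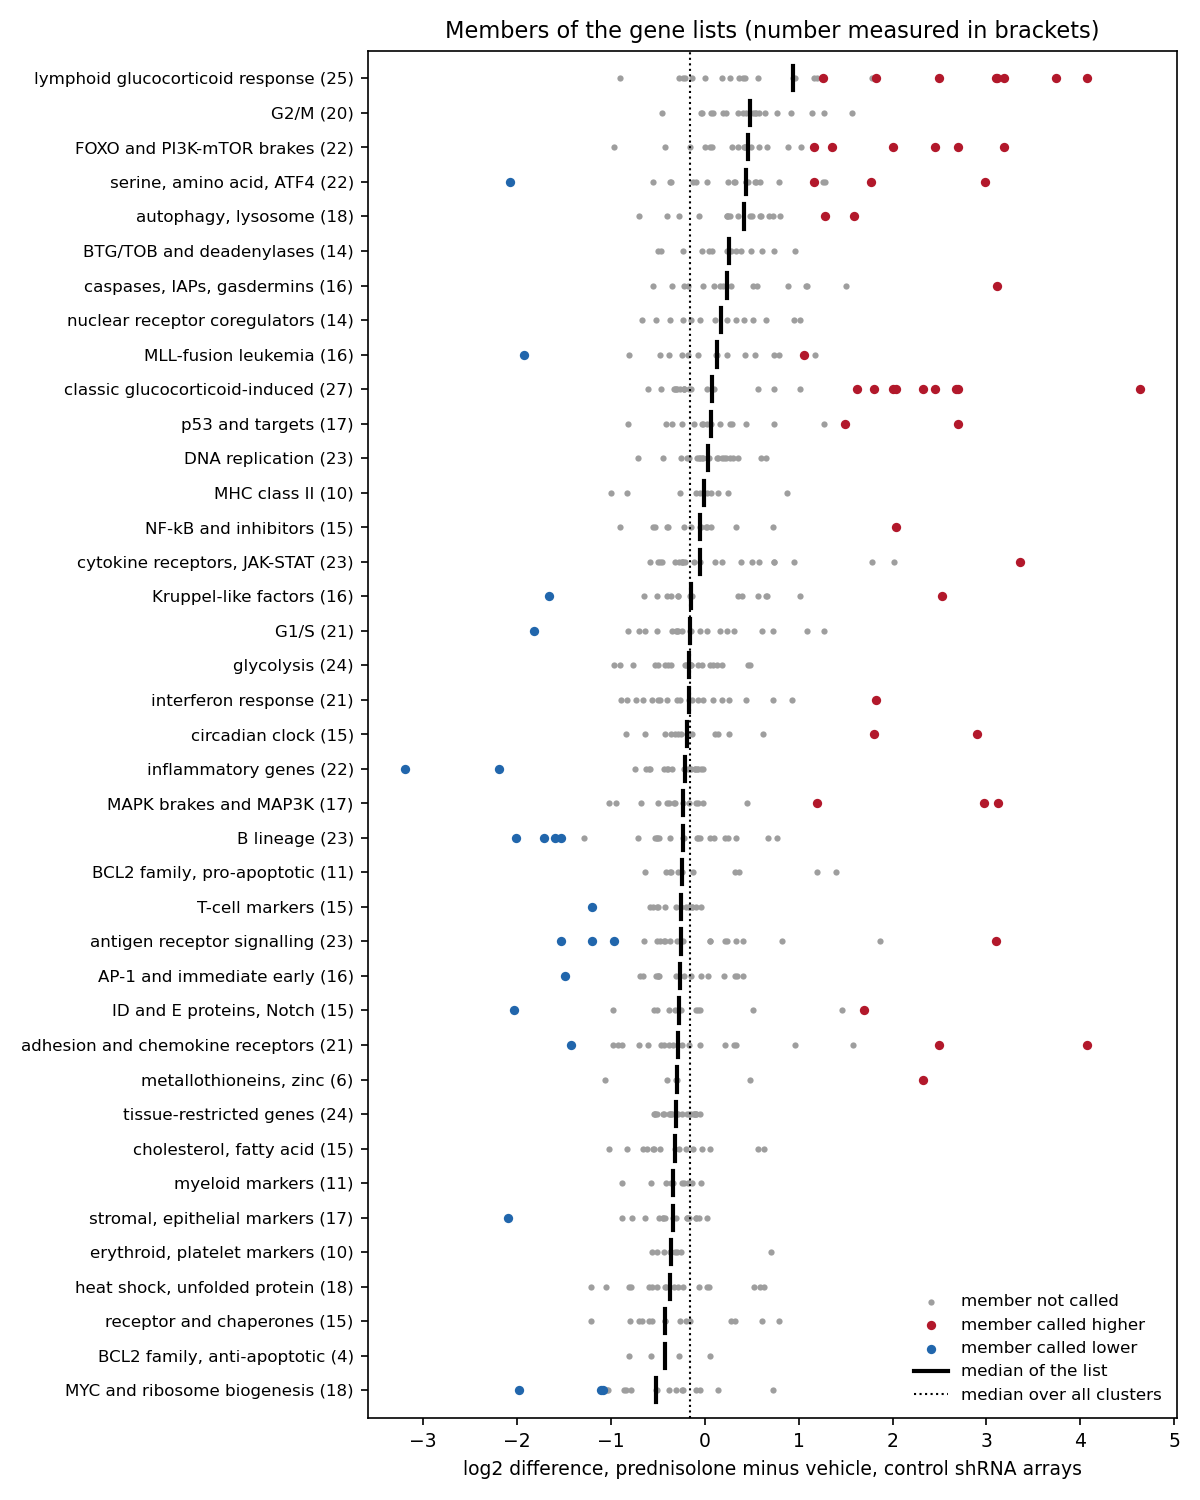
Log2 difference with prednisolone (x axis) of each measured member of 39 gene lists (rows, ordered by median), with members called higher in red and lower in blue. Black bars are list medians, from 0.94 for the lymphoid glucocorticoid response to -0.52 for MYC and ribosome biogenesis, and the dotted line is the median over all clusters, -0.16.

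Beyond the lists, the 30 largest rises with 1 gene symbol were of at least 2.60 on the log2 scale; the next, KLF7, was at 2.53. Of the 30, 21 were dim under vehicle, and 1, the chloride channel protein gene CLIC5, was dim in both groups. NDRG2, a stress-responsive gene of the NDRG family, had close replicates, with 4.84 and 4.72 under vehicle against 8.29 and 8.28 under prednisolone (3.51, SE 0.17, adjusted p = 5.67e-04). OGFRL1, named for its likeness to the opioid growth factor receptor, went from 6.71 and 7.95 to 10.76 and 11.22, 12.7-fold (adjusted p = 0.00661), with vehicle arrays over a log2 unit apart. The small membrane protein gene SMIM3 went from 7.77 and 7.39 to 10.45 and 10.58, 7.66-fold (adjusted p = 0.00121), and SHISA2, a regulator of FGF and WNT receptors, from 7.27 and 6.71 to 10.21 and 9.91, 8.39-fold (adjusted p = 0.00506).

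FBXW7, the ubiquitin ligase subunit that targets MYC, cyclin E and NOTCH, was at 4.91 and 5.24 against 7.54 and 8.57 (2.98, adjusted p = 0.00822). MAP3K6, a relative of MAP3K5 whose promoter is printed above, was at 5.95 and 5.15 against 8.36 and 8.30 (2.78, adjusted p = 0.00616). IRAK3, an inhibitor of Toll-like receptor signalling, was at 5.77 and 7.16 against 9.01 and 9.37 (2.72, adjusted p = 0.0234). Of these 3, FBXW7 passed in all 8 left-out fits. The remaining rises were LONRF1, the hyaluronidase CEMIP2, the ADP-ribosyltransferase PARP15, the formin DAAM1, the RAB5 exchange factor RIN2, the elongation factor ELL2, the choline transporter SLC44A1, the acetylcholine receptor subunit CHRNA1 and the inositol phosphatase INPP1, at 2.60 to 3.13.

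Of all 30, 19 passed in all 8 left-out fits and 12 on the 4 control arrays alone. The other 11 were OGFRL1 and IL6ST (lost without prednisolone array 2), SPRY1, MAP3K6, SLC44A1 and SESN1 (likewise, at adjusted p = 0.0511, 0.0606, 0.121 and 0.0694), LONRF1, SLC7A11, DAAM1, PARP15 and IRAK3. LONRF1 was lost without prednisolone array 1 (0.0618) or 2 (0.170), DAAM1 without vehicle array 1 (0.0522) or either prednisolone array (0.0706 and 0.112), and PARP15 and IRAK3 in 6 fits each (0.0663 to 0.211 and 0.0546 to 0.213). PARP15 was not called without vehicle array 1 (0.104), whereas IRAK3 was (0.0194).

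The 20 largest falls were of at least 1.75 on the log2 scale, and 13 of them ended at a dim level. PRICKLE1, a planar cell polarity protein, was at 7.34 and 7.35 under vehicle and at 3.95 and 3.82 under prednisolone (-3.46, SE 0.16, adjusted p = 5.67e-04), and its relative PRICKLE2, dim in both groups, was at -1.89 (adjusted p = 0.00614). LBH, a transcriptional cofactor, stayed bright on both sides, going from 10.26 and 10.37 to 8.24 and 8.81, 3.46-fold lower (adjusted p = 0.0114). ENTPD1-AS1, an antisense RNA, went from 8.67 and 8.67 to 7.02 and 6.37, 3.92-fold lower (adjusted p = 0.0104), and GNAZ, a G-protein alpha subunit, from 8.22 and 8.36 to 6.56 and 6.19, 3.77-fold lower (adjusted p = 0.00614). TRAF4, an adaptor of TNF-receptor signalling, went from 8.93 and 8.75 to 7.23 and 6.78 (-1.83, adjusted p = 0.00887).

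The others, between -2.0 and -1.75, were KANK2, TSKU, FJX1, HSH2D and CLVS1, of which TSKU was dim in both groups. Of the 20 falls 4 passed in all 8 left-out fits, and these 4 were also the ones that passed without prednisolone array 2. The 16 others were lost without that array at adjusted p of 0.0600 to 0.304, TSKU and CSPG4 also without vehicle array 1 (0.101 and 0.0949), GLDC, CD180, CSPG4, TSKU and CLVS1 also without prednisolone array 1 (0.0519 to 0.102), CD180 and CLVS1 also without any single BTG1 shRNA array (0.0510 to 0.0705), and CSPG4 also without vehicle array 2 (0.0531). On the 4 control arrays alone PRICKLE1 and IL1B passed.

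The 4 arrays labelled BTG1 shRNA did not carry the profile of the control arrays, which limits what the comparison with them can say about BTG1. Under vehicle, CD3D was at 11.44 and 11.49 on them against 3.42 and 3.32 on the control arrays, and CD79A at 4.92 and 4.90 against 9.89 and 9.99. With T-lineage genes high and B-lineage genes dim, cell identity and shRNA cannot be told apart there. On those arrays 0 clusters passed for prednisolone against vehicle in limma. Of the 17881 clusters 186 had an unadjusted p under 0.05, a share below the 0.05 that such a threshold passes without any effect. Of the 166 clusters that rose in control cells 118 had a positive difference there, with a median of 0.11, and of the 105 that fell 43 had a negative one, with a median of 0.04. The 24 genes of other tissues also had a median of 0.11 there. Shares over all clusters were not counted, so these counts are not read as a shared response.

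The difference between the 2 prednisolone effects was itself tested, and passed for 24 clusters: 19 with the control effect above (0.106% of those tested) and 5 below (0.028%). SGK1 was at 4.64 in control cells and 0.22 on the arrays labelled BTG1 shRNA (difference of effects 4.42, SE 0.33, adjusted p = 0.00862). NDRG2 was at 3.51 and -0.01 (adjusted p = 0.00847), and PRICKLE1 at -3.46 and -0.08 (adjusted p = 0.00847). TXNIP was at 2.0 and -0.56 (SE 0.22 on the latter) and SLA at 3.10 and -0.66 (SE 0.29). Neither negative value passed on the arrays labelled BTG1 shRNA, so they are not read as reversed responses. Other members of the 24 also lay below 0 there, such as RASSF4 (-0.16). The difference did not pass for SLC7A11, at 2.99 and 2.73 (adjusted p = 0.772). For TSC22D3, at 2.67 and 0.99, it did not pass either but was nearer the threshold (difference of effects 1.68, adjusted p = 0.0705). The count of 24 was 0 without prednisolone array 2 or without any single BTG1 shRNA array (680 to 2025 clusters at an unadjusted p under 0.05), and 24 (18 above and 6 below) without vehicle array 1.

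**Figure D5:**
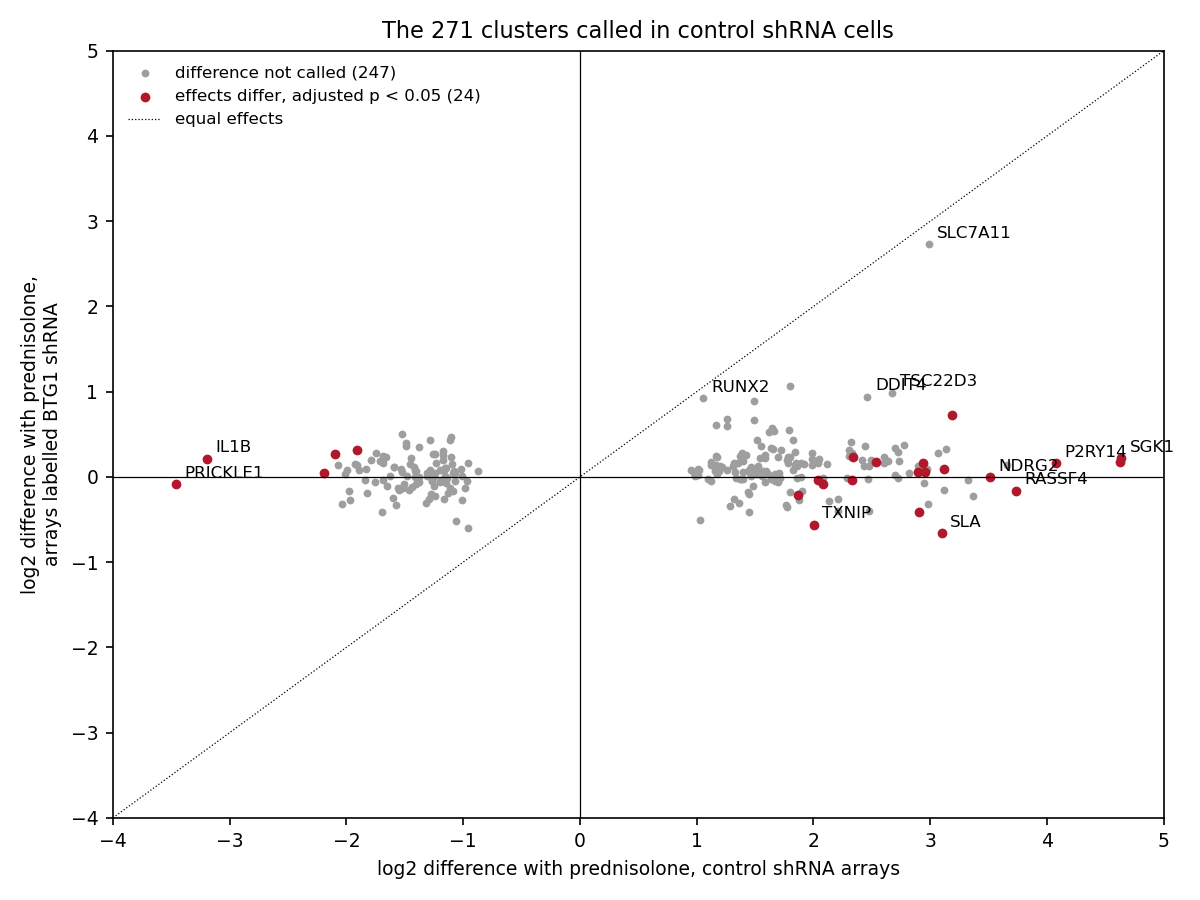
Log2 difference with prednisolone on the arrays labelled BTG1 shRNA (y axis) against that on the control shRNA arrays (x axis) for the 271 clusters called in control cells. The 24 whose effects differ are red, and the dotted line marks equal effects; most points lie near 0 on the y axis, with SLC7A11 (2.99 and 2.73) near the line.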

How the data were processed

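RNA from 8 samples was hybridised to Affymetrix exon arrays. The deposited values, named a score because most decimal points were lost, are log2 expression per transcript cluster: the submitters' processing notes name RMA and Partek, without versions, and the labels give core meta-probe sets on hg18. Values starting with 1 got the point back behind their second digit and all others behind their first; array correlations went from 0.446 to 0.587 as deposited to 0.872 to 0.995. A plain log2 table had been assumed, and the planned tests were kept on the restored values. No cluster was filtered out, and intensities and array dates were not used here.

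All 8 arrays entered 1 limma 3.58.1 fit (R 4.3.3, lmFit and eBayes) with a mean for each of the 4 groups. The reason was that the 4 control arrays alone leave 2 residual degrees of freedom. SEs and p-values of the control contrast thus also rest on arrays with another expression profile. A shared SE can lie below or above the control spread. The standard deviation under vehicle was 0.99 on control and 0.09 on BTG1 shRNA arrays for IRAK3, and 0.11 and 0.43 for CEMIP2. Benjamini-Hochberg adjustment ran over the 17881 clusters of each contrast, with 0.05 as the threshold. Scripts were tested on simulated data. The number of arrays limits the precision.

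Symbols come from the platform annotation: 14432 clusters have 1 symbol, 2408 several and 1041 none. Named genes are the 30 largest rises and 20 largest falls with 1 symbol, passing without overlap; NR3C1, BTG1, TSC22D3, FKBP5, PER1, KLF9, ZBTB16, BCL2L11, BMF, BCL2, MCL1, MYC and IL1B; and each list's called members with up to 3 others of smallest p. From clusters with several symbols only FKBP5, BTG1 and MCL1 are given. A gene with several clusters is given by the brightest. The 39 lists overlap and, like the comparison, were chosen with earlier results of these data known. Replicate numbers are shared across groups but no label says that they pair arrays. The alternatives are described in the closing section.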

Additional observations from a re-analysis of the deposited data

Results flagged for a closer look

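The prednisolone effect differed between control shRNA and BTG1 shRNA labels, by the limma test of the difference, for 24 clusters, all of which had also passed in control cells. Values are the control effect minus the other, on the log2 scale. The control effect was the higher by 4.42 for SGK1, 3.92 for P2RY14, 3.90 for RASSF4, 3.76 for SLA, 3.52 for NDRG2, 3.02 for GSDME, 2.89 for CEMIP2, 2.84 for RIN2, 2.77 for SMIM3, 2.56 for TXNIP, 2.46 for PIK3IP1, 2.36 for KLF7 and for WDR91, 2.17 for SLC31A2, 2.11 for MYRIP, and 2.08 for NFKBIA and for DNMT3B. Of 2 further clusters higher in control cells, 1 without a symbol gave 3.31 and 1 with 2 symbols gave 4.45. The difference was negative for PRICKLE1 (-3.38), IL1B (-3.41), PDGFRB (-2.36), PLAUR (-2.24) and GNAZ (-2.23). In that limma test adjusted p-values ran from 0.00847 to 0.0494. Each cluster lost its call in 5 to 8 of the 8 fits that left out an array, and losses in other alternatives were not counted here. WDR91, SLC31A2, MYRIP and DNMT3B lie outside the naming rule and are given because they passed here. The arrays labelled BTG1 shRNA express T-lineage and lack B-lineage genes, so cell identity and shRNA cannot be told apart.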

How the results depend on the processing

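The 271 calls became 755 with the replicate number as a replicate block (418 higher, 337 lower), 16 on the 4 control arrays alone (14 and 2) and 93 with array weights (76 and 17); with arrays centred on their median 66 were lower. Quantile normalization gave 290, an intensity trend 290, leaving out dim clusters 233 and leaving out clusters with a value starting with 1 223. Leaving out 1 array gave 40 to 770 calls, 36 to 481 higher and 4 to 289 lower. Over 2-fold these fits had 329 to 1702 higher and 205 to 970 lower clusters, and centring gave 163 lower. For the difference between shRNA labels, 24 clusters became 96 with the block, 14 when centred, 11 with weights, 8 without clusters starting with 1, and 0 to 24 with 1 array left out; where it was 0, 680 to 2025 clusters had an unadjusted p under 0.05.

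Same-numbered arrays of the control vehicle and prednisolone groups deviated together (correlation 0.56), as they did in 4 more of the 6 pairs of groups (0.26 to 0.59), but not in control prednisolone with BTG1 vehicle (0.01). No label says what a number marks and there are only 2, so whether the numbers pair the arrays is not settled. The block ended no call of a named gene and added 36, among them BCL2L11 (adjusted p = 0.027), PMAIP1 (0.0222), KLF9 (0.0188) and FKBP4 (0.0289). With it 2 of 11 pro-apoptotic genes rose, and 27 of the 39 lists had other counts of calls.

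Of 81 named genes called, the call was lost for 66 on the control arrays alone, 11 after quantile normalization, 15 when centred, 6 with a trend, 33 with weights and 4 to 54 with 1 array left out. MCL1, in its shared cluster, was at 0.26 with all arrays, at -0.0489 without control prednisolone array 2 and at 0.5696 without array 1, the ends of its range with 1 array left out, and passed in none of these. The cause of these changes was not tested. Of the 271 clusters, 23 of the higher and 16 of the lower were dim in both groups, where signal limits the size.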
